A study of Mus musculus with 6 samples.

Results

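The genes described here are 35 myeloid lineage genes, measured in mouse leukaemia cells that belong to the B lineage. They were given as a fixed list of names, and each was read from the brightest probe set, by mean over 6 arrays, that carries its symbol alone. All 35 were found among the 19938 genes so represented, and all 35 had 1 such probe set. The list holds 3 transcription factors of the C/EBP family, 4 receptor chains for colony-stimulating factors, 12 granule and secreted proteins, 13 surface and phagocytic proteins and 3 subunits of the NADPH oxidase of phagocytes.

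The cells were pre-B cells of C57Bl/6 origin transformed by BCR-ABL1, a model of Philadelphia chromosome-positive acute lymphoblastic leukaemia, with the genotype Bcor fl/Y. Bcor, which encodes a corepressor, lies on the X chromosome, so its 1 copy was floxed in every sample, the controls included. The 3 control arrays came from cells transduced with PMIP-ERT2 and the other 3 from cells transduced with PMIP-CRE-ERT2, in which tamoxifen switches on Cre recombinase, and both groups were given 4OH-Tamoxifen at 0.5 micromolar for 2 days. RNA was taken from puromycin-resistant cells. The labels do not say whether the arrays came from separate cultures, so the p-values measure the spread between arrays, which may be technical. No group had Cre-ERT2 without the floxed allele.

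Myeloid cells, the granulocytes, monocytes and macrophages, arise from progenitors in which PU.1 and the C/EBP factors switch on the receptors for colony-stimulating factors and then, in stages, the enzymes and antimicrobial proteins of granules. Mature phagocytes take up particles through Fc, scavenger and lectin receptors and kill them with superoxide made by the NADPH oxidase. B cells share part of this programme: PU.1 and the oxidase subunits, for example, are used in both lineages, while granule proteases such as Mpo and Elane are held to be myeloid.

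All values are log2 probe set values as deposited. Probe sets differ in how strongly they bind, so levels are not ranked from gene to gene. The place of a gene is given only as inside or outside the dimmest 30% or 50% of all genes, the filters used as alternatives. Detection calls were not used here. The targeted gene, Bcor, fell by 0.96 (SE 0.0491) and the array medians lay between 8.61 and 8.68.

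Of 12 measured markers of the labelled B lineage, 11 lay outside the dimmest 50% of genes. Since this position also depends on the probes, it does not show by itself that a gene was expressed: 5 of 26 measured genes of unrelated tissues, such as liver or eye genes, lay there too, among them the kidney gene Umod, named after its values were seen, at 11.24 in ERT2 and 11.18 in Cre-ERT2. Igll1, part of the surrogate light chain, stood at 14.20 ± 0.00552 in ERT2 and 14.25 ± 0.0153 in Cre-ERT2 (SD, n = 3 each). The B-lineage marker inside the dimmest 50% was Dntt, terminal transferase. Of the 35 myeloid genes 27 lay in the dimmest 50% and 14 of these in the dimmest 30%, and of the 26 genes of unrelated tissues 21 and 9 did. The 8 myeloid genes outside the dimmest 50% were the receptor chains Csf2rb and Csf2ra, Lyz2, Cd68, Sirpa and the oxidase genes Cyba, Cybb and Ncf4. Csf2ra was there only just, with a mean of 8.8567 over the 6 arrays where the cut was 8.8562. The primary granule genes Mpo, Elane, Ctsg and Prtn3 and the macrophage genes Adgre1, Itgam, Cd14 and Csf1r were all among the dim 27.

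Of the 35 genes, 5 rose, 2 fell and 28 did not pass limma's test of Cre-ERT2 against ERT2 at an adjusted p under 0.05. Over all 19938 genes tested, 7.03% passed, 4.05% as higher and 2.98% as lower. The 35 were chosen with earlier results of these data known, and the effect of that choice on their share was not tested. Lyz2, Fcgr1, Csf2rb, Cyba and Sirpa rose, and Mrc1 and Cybb fell. These shifts were small, from 1.14-fold (Sirpa) to 1.45-fold (Mrc1). The median log2 fold change was -0.04 over the list and -0.04 over all genes, and 23 of the 35 values (65.7%) were below 0, against 68.1% over all genes. In bulk RNA, fewer cells of a type and less RNA per cell cannot be told apart.

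The calls were uneven over the range of levels. Of the 8 members outside the dimmest 50% of genes 4 rose and 1 fell, where 10.6% of all genes at such levels were called. Of the 27 dimmer members 1 rose (Fcgr1) and 1 fell (Mrc1), where 3.46% of all dimmer genes were called. The groups did not overlap for 18 members, against 29.9% of all genes. Of these 7 were higher and 11 lower in Cre-ERT2, where 9.56% and 20.3% of all genes were, so lower separations were the more frequent kind across the array too. The number of members called was 4 when the first control, or the first or second Cre-ERT2 array, was dropped, settings in which 3.73% to 4.03% of all genes were called. It was 14 with array weights, with 16.7% of all genes called. Lyz2, Mrc1 and Cybb kept their calls under each alternative in which they were tested.

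**Figure D1:**
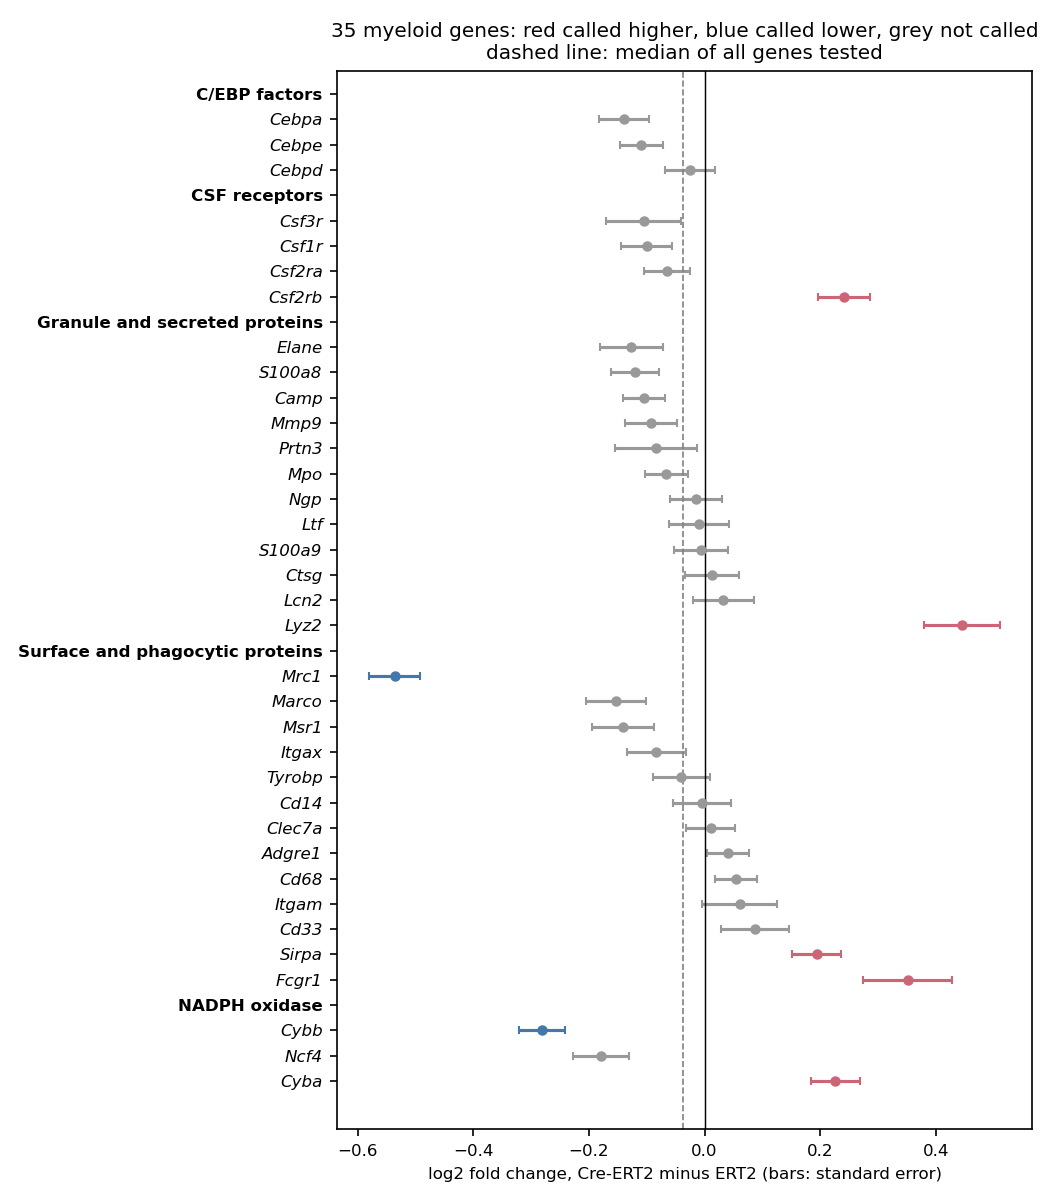
Log2 fold change (Cre-ERT2 minus ERT2, x axis) of the 35 myeloid genes, grouped by role on the y axis, with bars for the standard error, a solid line at 0 and a dashed line at the median of all genes. The 5 red genes were called higher, the 2 blue genes lower, and the 28 grey genes lay between -0.18 (Ncf4) and 0.09 (Cd33).

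**Figure D2:**
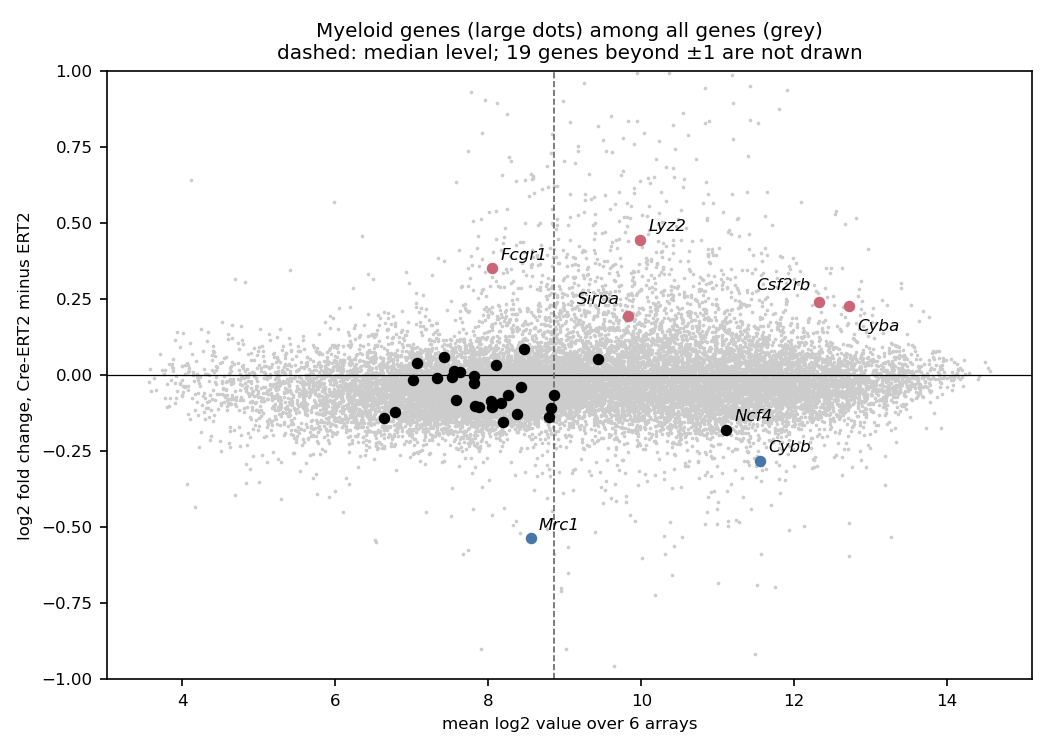
Mean log2 value over 6 arrays (x axis) against log2 fold change (y axis) for the myeloid genes, drawn as large dots (red called higher, blue called lower, black not called), and for all other genes in grey. A dashed line marks the median level, and 19 genes with changes beyond 1 are not drawn. Most myeloid genes sit to the left of the line near 0. Of the 8 to the right of it 5 were called, and Csf2ra, not called, lies almost on it.

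The windows around the transcription start of the called genes are shown because these genes moved in both directions. RefSeq windows of 300 bases (250 before the start and 50 after it, GRCm38.p6) matched 24 members by symbol, among them 5 of the 7 called genes. They are written 5′ to 3′ on the strand of the gene, and capitals mark GAGGAA, a core bound by PU.1 and related ETS factors, on either strand, where the opposite strand reads TTCCTC.
Lyz2 (chr10:117282223-117282522, minus strand): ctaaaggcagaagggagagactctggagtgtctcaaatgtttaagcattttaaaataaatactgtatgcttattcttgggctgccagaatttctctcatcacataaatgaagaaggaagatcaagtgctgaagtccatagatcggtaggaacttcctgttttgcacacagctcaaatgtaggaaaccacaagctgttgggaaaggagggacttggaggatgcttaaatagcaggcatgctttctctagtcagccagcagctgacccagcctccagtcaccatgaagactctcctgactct
Fcgr1 (chr3:96293920-96294219, minus strand): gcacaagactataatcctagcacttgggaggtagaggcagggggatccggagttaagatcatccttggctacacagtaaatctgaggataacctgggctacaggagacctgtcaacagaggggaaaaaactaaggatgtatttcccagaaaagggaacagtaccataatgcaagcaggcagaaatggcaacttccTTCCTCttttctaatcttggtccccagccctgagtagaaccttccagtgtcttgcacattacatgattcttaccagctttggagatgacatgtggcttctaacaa
Cyba (chr8:122432891-122433190, minus strand): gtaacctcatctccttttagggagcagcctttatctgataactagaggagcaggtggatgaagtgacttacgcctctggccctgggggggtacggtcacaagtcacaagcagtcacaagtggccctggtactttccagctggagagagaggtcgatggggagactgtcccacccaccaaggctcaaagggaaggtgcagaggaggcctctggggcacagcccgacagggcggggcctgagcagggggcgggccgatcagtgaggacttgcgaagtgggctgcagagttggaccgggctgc
Mrc1 (chr2:14229164-14229463, plus strand): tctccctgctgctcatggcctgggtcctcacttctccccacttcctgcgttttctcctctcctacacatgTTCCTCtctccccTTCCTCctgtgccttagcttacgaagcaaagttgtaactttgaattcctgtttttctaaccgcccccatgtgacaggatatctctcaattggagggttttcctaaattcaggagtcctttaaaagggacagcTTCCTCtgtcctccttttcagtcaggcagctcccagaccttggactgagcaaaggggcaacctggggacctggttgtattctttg
Cybb (chrX:9469275-9469574, minus strand): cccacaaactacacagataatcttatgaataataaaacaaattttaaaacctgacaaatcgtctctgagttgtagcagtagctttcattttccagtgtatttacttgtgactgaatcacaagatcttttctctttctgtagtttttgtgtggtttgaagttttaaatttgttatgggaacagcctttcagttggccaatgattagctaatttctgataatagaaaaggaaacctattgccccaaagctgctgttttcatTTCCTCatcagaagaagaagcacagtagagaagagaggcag

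The core occurred 3 times in the Mrc1 window, once each in those of Fcgr1 and Cybb, and was not found in those of Lyz2 and Cyba. Counted from the start, with the first transcribed base as 1, the Mrc1 matches began at -180, -167 and -35, all on the opposite strand. The Fcgr1 match began at -55 and the Cybb match at 10, on the opposite strand too. So GAGGAA was present in windows of a gene that rose and of both genes that fell. It was found in 17 of the 24 members with a window, and in 28.3% of all 32851 windows. The C/EBP palindrome TTGCGCAA (0.183% of all windows) and the BCL6-type motif TTCCTAGAA (0.411%), searched on both strands, were in 0 of the 24. These matches are descriptions of letters, and none was tested as a binding site.

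Of the 3 C/EBP genes, none was called. Cebpa, which drives commitment to granulocytes and monocytes, stood at 8.86, 8.80 and 8.91 in the ERT2 arrays and at 8.69, 8.71 and 8.75 in the Cre-ERT2 arrays. The groups did not overlap, but the log2 fold change of -0.14 (SE 0.0434) had a limma adjusted p of 0.101. Cebpe, needed for late granulocyte maturation, had values of 8.86, 8.84 and 8.90 against 8.77, 8.76 and 8.76, a difference of -0.11 (limma adjusted p = 0.124), again with no overlap. Cebpd, a factor induced in differentiating myeloid cells, stood at 7.86, 7.75 and 7.85 against 7.81, 7.78 and 7.79, with overlapping groups. All 3 genes lay in the dimmest 50% of genes. With array weights Cebpa (adjusted p = 0.0238) and Cebpe (0.0473) were called as lower.

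Of the 4 receptor chains for colony-stimulating factors, 1 rose (Csf2rb) and 3 did not pass (Csf2ra, Csf1r and Csf3r). Csf2rb, the beta chain common to the receptors for GM-CSF, interleukin 3 and interleukin 5, read 12.17, 12.15 and 12.28 in ERT2 and 12.42, 12.47 and 12.44 in Cre-ERT2. Every Cre-ERT2 array was above every ERT2 array, and the gene rose by 0.24 (SE 0.0452, limma adjusted p = 0.0149). With 1 control left out, replicate 1 or 2, or with replicate 2 of the Cre-ERT2 group left out, the adjusted p was 0.0544 to 0.0732 and the call was lost. Csf2rb2, the adjacent mouse gene for a beta chain of the interleukin 3 receptor, is not among the 35. It rose by 0.54 (SE 0.0423), from 10.21, 10.21 and 10.32 to 10.79, 10.79 and 10.79. The paralogs are close in sequence, and probes of either may read both.

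Csf2ra, the chain that binds GM-CSF, stood at 8.88, 8.86 and 8.93 against 8.86, 8.78 and 8.83, a difference of -0.07 with overlapping groups. Csf1r, the receptor for macrophage colony-stimulating factor, was at 7.88, 7.81 and 7.92 against 7.79, 7.80 and 7.73. Its groups were just apart, by less than the spread within them, and its difference of -0.10 had an adjusted p of 0.216 in limma. Csf3r, the receptor for granulocyte colony-stimulating factor, was at 8.05, 7.90 and 7.82 against 7.84, 7.74 and 7.88, with overlapping groups. With array weights the limma adjusted p of Csf3r was 0.0478. Csf1r and Csf3r lay in the dimmest 30% of genes.

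Of the 12 granule and secreted proteins, Lyz2 rose and 11 did not pass. Lyz2, lysozyme M, which breaks bacterial cell walls, read 9.67, 9.70 and 9.92 in ERT2 and 10.25, 10.20 and 10.18 in Cre-ERT2. The groups were apart, and the third ERT2 array lay above the other ERT2 arrays. The means were 9.77 ± 0.138 and 10.21 ± 0.0365 (SD, n = 3 each), a rise of 0.45 (SE 0.0662, limma adjusted p = 0.00488) or 1.36-fold. It kept this call in all 15 alternatives, with values of 0.40 to 0.53. Lyz1, the adjacent gene for lysozyme P, was at 9.21, 9.02 and 9.11 against 9.45, 9.41 and 9.23, a difference of 0.25 (limma adjusted p = 0.0650). Lyz1 and Lyz2 are close in sequence and their probes may read both.

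None of the other 11 granule genes was called. Mpo, the myeloperoxidase of primary granules, stood at 8.29, 8.28 and 8.31 in ERT2 and 8.25, 8.19 and 8.23 in Cre-ERT2, a difference of -0.07 (limma adjusted p = 0.325). Elane, neutrophil elastase, was at 8.40, 8.51 and 8.42 against 8.22, 8.40 and 8.32, with overlapping groups. The proteases Prtn3 (-0.08) and Ctsg (0.01) also overlapped. All 4 primary granule genes lay in the dimmest 50% of genes.

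Camp, the precursor of cathelicidin in secondary granules, was at 8.10, 8.09 and 8.11 against 7.99, 8.02 and 7.97. S100a8, a calcium-binding protein abundant in neutrophil cytosol, was at 6.85, 6.78 and 6.88 against 6.73, 6.68 and 6.74. For both genes the groups were apart in the lower direction, with differences of -0.10 and -0.12 and a limma adjusted p of 0.132 each. With array weights the limma adjusted p was 0.0710 for Camp and 0.0302 for S100a8. S100a9, the partner of S100a8 in calprotectin, was at -0.01 with overlapping groups. The secondary granule genes Ltf (lactoferrin, -0.01), Ngp (-0.01) and Lcn2 (a lipocalin that binds siderophores, 0.03) overlapped too. Mmp9, the gelatinase of tertiary granules, read 8.21, 8.18 and 8.24 against 8.05, 8.17 and 8.14, and its groups were just apart (-0.09, limma adjusted p = 0.256). Of these genes Ctsg, Ngp, Ltf, S100a8 and S100a9 lay in the dimmest 30%.

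Of the 13 surface and phagocytic genes 2 rose, 1 fell and 10 did not pass. Mrc1, the mannose receptor of macrophages, read 8.80, 8.84 and 8.82 in ERT2 and 8.35, 8.21 and 8.29 in Cre-ERT2. The groups lay far apart relative to their spread, with means of 8.82 ± 0.0183 and 8.28 ± 0.0688 (SD, n = 3 each). Mrc1 fell by 0.54 (SE 0.0446, limma adjusted p = 0.000219), a 1.45-fold lower level, and its value stayed between -0.57 and -0.50 over 14 alternatives. The gene lay in the dimmest 50%.

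Fcgr1, the high-affinity receptor for IgG, read 8.05, 7.77 and 7.81 in ERT2 and 8.28, 8.28 and 8.12 in Cre-ERT2. The highest control and the lowest Cre-ERT2 array were close, and the rise of 0.35 (SE 0.0766) had an adjusted p of 0.0294 in limma. The call was lost when control replicate 2 or 3, or replicate 1 or 2 of the Cre-ERT2 group, was dropped (adjusted p 0.0842 to 0.112). Sirpa, an inhibitory receptor that binds CD47, read 9.69, 9.71 and 9.79 against 9.93, 9.90 and 9.94. Its groups were apart and it rose by 0.19 (SE 0.0417, limma adjusted p = 0.0279). The call of Sirpa was lost on dropping each array in turn except the third control (adjusted p 0.0589 to 0.116), after quantile normalization (0.0749) and after median centring (0.0664).

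The scavenger receptors Marco and Msr1, which bind modified lipoproteins and bacteria, had the largest differences of the uncalled surface genes. Marco was at 8.36, 8.17 and 8.29 against 8.10, 8.11 and 8.14, with groups apart and a difference of -0.15 (limma adjusted p = 0.123). Its adjusted p was 0.0454 without ERT2 replicate 2 and 0.0230 with array weights. Msr1 was at 6.74, 6.63 and 6.72 against 6.54, 6.49 and 6.65, a difference of -0.14 (adjusted p = 0.164) with overlapping groups. With array weights the limma adjusted p of Msr1 was 0.0197.

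The integrin chain Itgam, part of complement receptor 3, was at 7.50, 7.39 and 7.31 against 7.41, 7.39 and 7.57. Adgre1, an adhesion receptor used as a macrophage marker, was at 7.04, 7.04 and 7.04 against 7.11, 7.06 and 7.08. Adgre1 differed by 0.04 with its groups apart (limma adjusted p = 0.528) and Itgam by 0.06 with overlap, and both genes lay in the dimmest 30%. Cd68, a lysosomal glycoprotein of macrophages that lay outside the dimmest 50%, was at 0.05 (adjusted p = 0.409). Overlap was also seen for the adaptor Tyrobp (-0.04), the lipopolysaccharide co-receptor Cd14 (-0.0043) and the beta-glucan receptor Clec7a (0.01). The integrin chain Itgax, common on dendritic cells, was at 7.60, 7.57 and 7.67 against 7.48, 7.50 and 7.62, and the sialic acid receptor Cd33 at 8.52, 8.42 and 8.35 against 8.50, 8.61 and 8.44. Their differences of -0.08 and 0.09 were within the overlap of the groups.

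**Figure D3:**
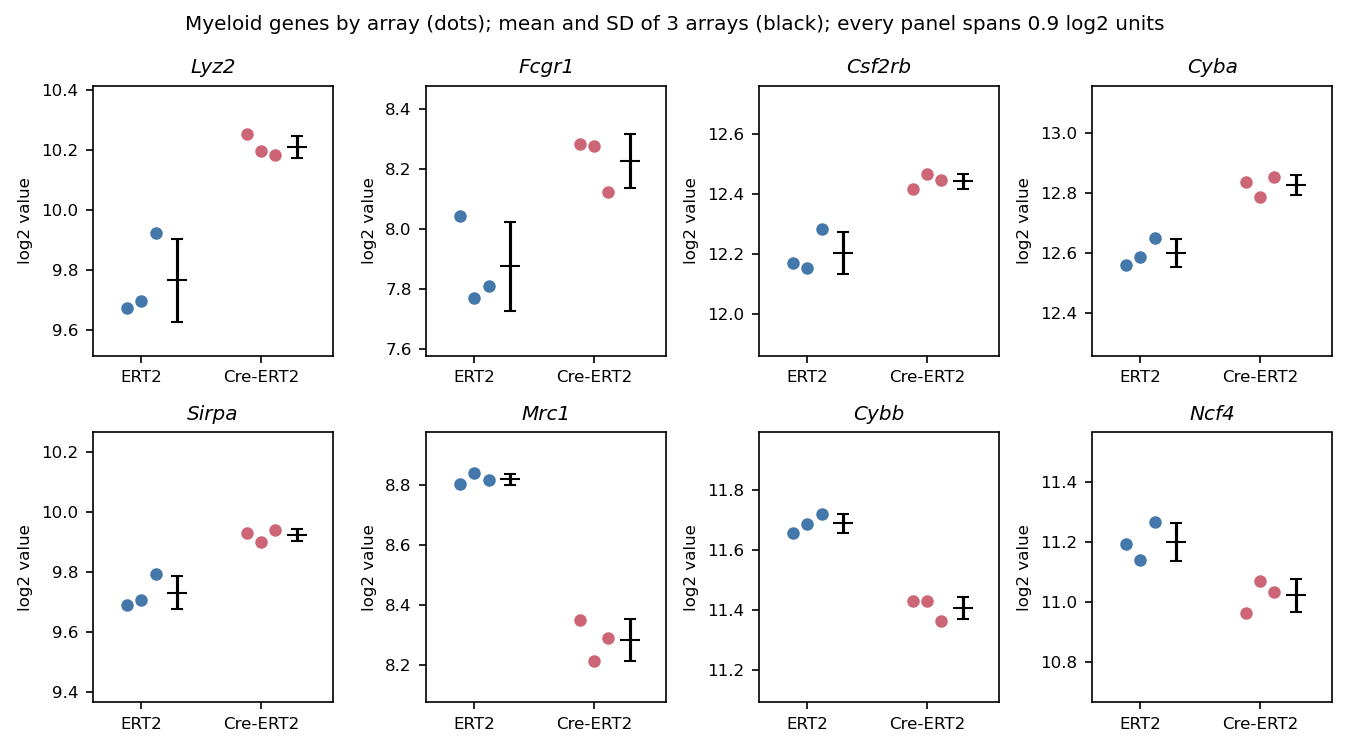
Log2 value (y axis) in each ERT2 array (blue) and Cre-ERT2 array (red) for the 7 called myeloid genes and Ncf4, with the mean and SD of 3 arrays in black; every panel spans 0.9 log2 units. The groups are apart in all 8 panels, widest for Mrc1 and narrowest, among the called genes, for Fcgr1.

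Of the 3 oxidase subunits 1 rose, 1 fell and 1 did not pass. Cybb and Cyba encode the chains of the membrane cytochrome that passes electrons to oxygen. Cybb, the catalytic chain, read 11.66, 11.69 and 11.72 in ERT2 and 11.43, 11.43 and 11.36 in Cre-ERT2, and Cyba, its partner, read 12.56, 12.59 and 12.65 against 12.84, 12.79 and 12.85. Neither gene had overlapping groups. Cybb fell by 0.28 (SE 0.0397, limma adjusted p = 0.00370) and Cyba rose by 0.23 (SE 0.0415, limma adjusted p = 0.0135). The Cybb call held in all 15 alternatives (adjusted p up to 0.0298), and that of Cyba was lost on dropping the first control (adjusted p = 0.0680) or the first Cre-ERT2 array (0.0556). Cybb is on the X chromosome, as is Bcor, with 20 protein-coding genes between them in the GRCm38.p6 gene table.

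Ncf4, a cytosolic subunit that joins the active complex, read 11.19, 11.14 and 11.27 against 10.96, 11.07 and 11.03. Its groups were apart, with a difference of -0.18 (SE 0.0478, limma adjusted p = 0.0621). It passed with an intensity trend (0.0287), with array weights (0.0298) and with the dimmest 30% (0.0323) or 50% (0.0246) of genes left out. Of 8 other measured genes of this enzyme family, 1 rose and 0 fell, which is 12.5% called beside 7.03% of all genes. That gene was Ncf1, the organizer subunit, at 9.19, 9.25 and 9.23 against 9.45, 9.52 and 9.52, a rise of 0.27 (SE 0.0400, limma adjusted p = 0.00464). Cybc1, a chaperone of the cytochrome, was at 0.15 (adjusted p = 0.0877) and the proton channel Hvcn1 at 0.16 (adjusted p = 0.0583), both with groups apart. The GTPases Rac1 (-0.02) and Rac2 (0.04) had overlapping groups, as did Nox1 (-0.03) and Nox4 (-0.06). Noxo1 (-0.06) was not called, with groups apart in the lower direction.

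**Figure D4:**
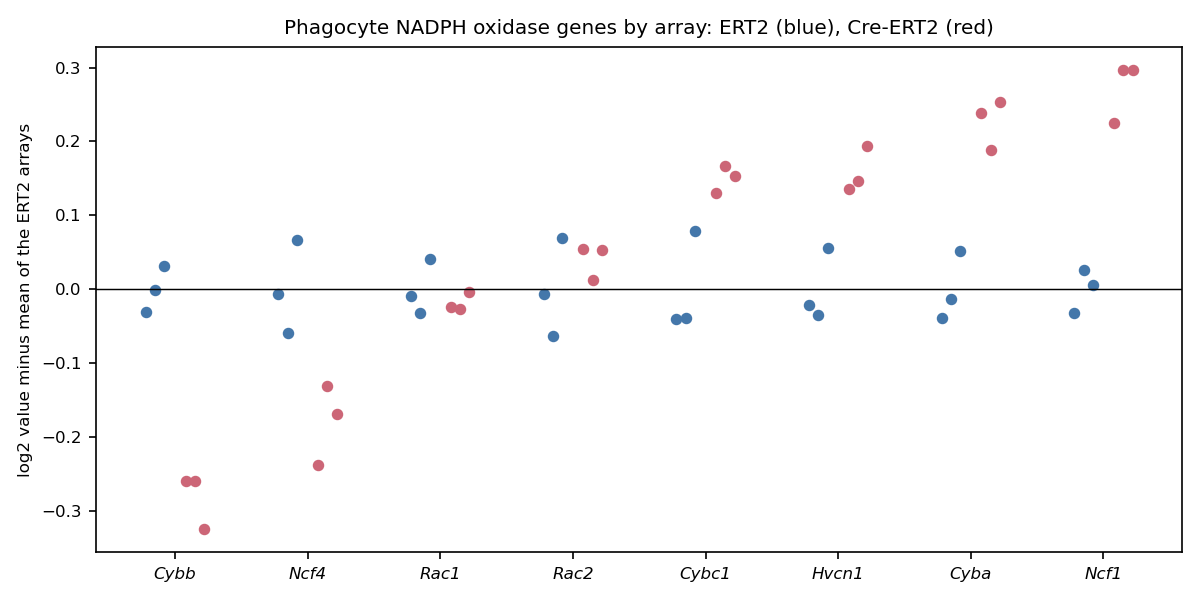
Log2 value of each array minus the mean of the ERT2 arrays (y axis) for oxidase genes (x axis), with ERT2 arrays in blue and Cre-ERT2 arrays in red. Cybb and Ncf4 lie below 0 in all Cre-ERT2 arrays, Cyba, Ncf1, Cybc1 and Hvcn1 above it, and Rac1 and Rac2 near it. Nox1, Nox4 and Noxo1 are not drawn.

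Further genes, not all of them specific to myeloid cells, were listed by name together with the oxidase genes just given. Of these 84 measured genes 9 rose, 5 fell and 70 did not pass. This is 16.7% called, beside 7.03% of all genes (4.05% higher and 2.98% lower), and the counts of the smaller lists that follow are to be read against the same shares. These genes were listed with earlier results of these data known, and the effect of that choice on the share was not tested. Their median log2 fold change was -0.02. Of 15 other transcription factors 1 (6.67%) fell: Gfi1b, a repressor of erythroid and megakaryocyte cells, by 0.43 (SE 0.0407). Spi1, which encodes PU.1, was at 11.84, 11.77 and 11.93 against 11.92, 11.96 and 11.92, a difference of 0.08 (limma adjusted p = 0.328), and Irf8, a factor of monocytes and B cells, was at -0.05. Neither was called, and Spi1, Irf8 and Gfi1b all lay outside the dimmest 50% of genes.

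Of 11 other cytokine receptors and ligands 3 rose and 0 fell: Flt3, the receptor of early lymphoid and myeloid progenitors (0.56, SE 0.0396), Csf2rb2 and Il5ra, the interleukin 5 binding chain (0.29, SE 0.0545). Of 20 other granule and secreted proteins the lysosomal proteases Ctsh (0.66, SE 0.0421) and Ctss (0.29, SE 0.0531) rose and 18 did not pass. Of 30 other surface genes 3 rose and 4 fell. Axl, a receptor kinase for the uptake of dying cells, rose by 0.64 (SE 0.0573), while the fatty acid transporter Cd36 fell by 0.70 (SE 0.0400), the lipopolysaccharide receptor Tlr4 by 0.53 (SE 0.0414) and Trem1, which amplifies inflammatory signals, fell by 0.48 (SE 0.0647). The remaining calls, named after their values were seen, were Ly86 (0.34), Cd47, the ligand of Sirpa (0.22), and Mertk (-0.20). Limma adjusted p for the 14 genes lay between 3.32e-05 (Cd36) and 0.0239 (Mertk).

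Markers of other cells were compared in the same way. In limma 4590 of all 19938 genes had an unadjusted p under 0.05, as did 16 of the 35 myeloid genes. Of the 12 T and NK markers 5 did, and of the 12 B-lineage markers 7. The mean log2 value of the 35 myeloid genes per array ran from 8.49 to 8.54 in ERT2 and from 8.50 to 8.51 in Cre-ERT2. Of 12 T and NK markers 1 was called (8.33%, beside 7.03% of all genes), the NK receptor Ncr1, which fell by 0.23 (SE 0.0410, limma adjusted p = 0.0127), and the list mean ran from 7.78 to 7.86 in ERT2 and from 7.73 to 7.75 in Cre-ERT2. The T cell genes Cd5 (0.06) and Cd3e (-0.02) did not pass. Of 6 erythroid and megakaryocyte markers 0 were called by limma (0 also at an unadjusted p under 0.05), with Pf4 at -0.08, Gp9 at 0.05 and Itga2b at -0.04. Of 8 stromal and vascular markers 0 were called (2 at an unadjusted p under 0.05): Pecam1, which leukocytes also carry, was at 0.13 (adjusted p = 0.0762), Col1a2 at -0.10 (adjusted p = 0.134) and Col1a1 at -0.08.

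Of 26 genes of unrelated tissues 0 were called. At an unadjusted limma p under 0.05 there were 4, beside 4590 of all 19938 genes. Odf1 was at -0.14 (adjusted p = 0.0597) and Tnp2 at -0.13 (adjusted p = 0.113). Of these 26 values 20 (76.9%) were below 0, with a median of -0.06, and of the 28 uncalled myeloid values 21 (75%) were below 0, with a median of -0.07. The share below 0 was 76.5% over all genes of the dimmer 50% and 59.8% over the brighter genes, so this tilt ran across the array and was larger at low values. Small negative differences such as those of Camp, S100a8 and Mpo had counterparts among genes of tissues other than blood. Of the 12 B-lineage markers 3 rose and 2 fell. This is 41.7% called, beside 7.03% of all genes and 10.6% of the brighter genes. Dntt (0.86, SE 0.0741), Cd22, an inhibitory receptor of B cells (0.27), and Cd24a (0.19) rose. Il7r, the interleukin 7 receptor chain (-0.60), and the recombinase gene Rag1 (-0.38) fell.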

How the data were processed

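The data were 6 Affymetrix arrays, 3 per group. The authors deposited log2 values per probe set, and the submitters' processing notes list RMA and Partek 6.5 without saying what each did. The genome build is not given in the sources used here. Of 35556 probe sets 21789 had 1 gene symbol in the platform annotation, 1621 several and 12146 none, which left 19938 genes. Gene IDs of all 35 members matched the GRCm38.p6 gene table. The groups were compared by limma 3.58.1 (R 4.3.3), through lmFit and then eBayes with no intensity trend, with Benjamini-Hochberg adjustment over all 19938 genes, a threshold of 0.05 and no filter on dim genes in the values reported. The members and lists were chosen with earlier results of these data known. Per-array values are given for called members, for the uncalled members of smallest p and for defining genes of each role. From other lists up to 4 called genes of largest change are named, or the 2 of smallest p, and from marker lists also the 2 of highest mean. List genes with no single-symbol probe set were not analysed here. The median standard error of a fold change was 0.0477, and the number of arrays limits the precision. Code was tested on simulated data. Values were read with data.table (version 1.17.8), and the plots were drawn in Python 3.11.15 with pandas 2.3.3 and matplotlib 3.10.9.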

Additional observations from a re-analysis of the deposited data

How the results depend on the processing

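Alternatives tried were array weights, an intensity trend, a replicate block, 3 further normalizations, filters on dim genes, the mean of probe sets, a threshold of 0.1 and each array left out. The threshold of 0.1 was applied only to the counts of calls, where it gave 8 members. Under the other alternatives 484 member values were obtained. Of these 429 kept direction and side of the 0.05 threshold, 17 lost a call, 11 gained one and 27 changed sign. Of the 27 sign changes 0 involved a call. A fit with an array left out has fewer samples, and the causes of lost calls and of the other changes were not tested. The replicate numbers are not said to pair samples, and deviations of same-numbered arrays from their group means correlated at 0.051, -0.095 and -0.26 over genes. For arrays of different number in the 2 groups these correlations ran from -0.293 to 0.311. With the replicate block 6 members were called (Sirpa lost its call, adjusted p = 0.0677) and 805 genes in all, 259 of them lower. No other call of a member changed with the block, but that of Csf2rb was at the threshold (limma adjusted p = 0.04985).

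With an array left out, 4 to 6 members were called, 2 to 4 of them higher and 2 to 3 lower, and 743 to 1341 genes in all, 513 to 713 higher and 214 to 628 lower. With array weights 14 members were called, 9 of them lower, and 3339 genes in all, 1315 higher and 2024 lower, so that higher calls made up 39.4% against 57.6% as reported. That share was 67.8% with the block and 67.9% after cyclic loess. Median centring gave 394 lower genes, and an adjusted p under 0.1 gave 2271 genes, 1190 lower. The median fold change over all genes was -0.01 after cyclic loess.

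The sign changes were all in uncalled members. After cyclic loess Cebpd was at 0.0153, Ngp at 0.029, Ltf at 0.0344, S100a9 at 0.0366 and Cd14 at 0.0354. With array weights Ctsg was at -0.0205, Ltf at 0.0187, Itgam at -0.0301, Cd14 at 0.0456 and Clec7a at -0.0195, and after quantile normalization Cd14 was at 3e-04. With an array left out Ctsg ranged from -0.0312 to 0.0416, Ngp from -0.0409 to 0.0167, Ltf from -0.0428 to 0.037, Lcn2 from -0.0016 to 0.0834, S100a9 from -0.0494 to 0.0187, Cd14 from -0.0514 to 0.021, Clec7a from -0.0219 to 0.0382 and Tyrobp from -0.0774 to 0.0017.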

Other observations

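Itgam was also named by 3 probe sets that carry the symbols of both Rpl35, a ribosomal protein gene, and Itgam. These read between 13.71 and 13.87 in all arrays and differed by 0.04 between groups, while the single-symbol Itgam probe set read between 7.31 and 7.57. The shared probe sets were not used for Itgam.

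The 11 uncalled members whose groups did not overlap were Cebpa, Cebpe, Csf1r, Mpo, Camp, Mmp9, S100a8, Marco and Ncf4, lower in Cre-ERT2, and Adgre1 and Cd68, higher. Their log2 fold changes lay between -0.18 and 0.05. Over all genes, called or not, the groups did not overlap for 29.9%, 20.3% as lower and 9.56% as higher in Cre-ERT2.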
